A study of Mus musculus with 8 samples.

Results

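Transcripts of 40 ribosome biogenesis genes were followed in the left ventricles of mice with and without the RNA-binding protein Lin28a in heart muscle. The 40 genes were taken by symbol, not by their measured values, and all 40 are present among the 13439 genes of the expression table. Levels are given as CPM, the reads of a gene scaled to the same total of assigned reads in every library. All 40 also reached at least 1 CPM in at least 2 libraries, the minimum for testing that 13120 genes met. The series has 8 RNA-seq libraries of whole left ventricle in 4 groups of 2. Control littermates, labelled Lin28afl/fl and called floxed hearts here, underwent either sham surgery or transverse aortic constriction (TAC), in which a band narrows the aorta and so raises the pressure against which the ventricle pumps. Hearts labelled Lin28aCko, called cKO hearts here, carried a cardiac knockout of Lin28a and underwent the same 2 procedures. Hypertrophic hearts were collected on day 5 after TAC; the labels give no day for sham hearts. The Cre driver of the knockout, the strain, sex and age of the mice, and any pooling of animals are not stated in the labels. The series title poses the question of whether hypertrophy under pressure overload depends on Lin28a. The labels do not state that the libraries of a group came from separate animals, so a p-value here measures the spread between libraries, which may be technical.

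Ribosomes are built mainly in the nucleolus. RNA polymerase I copies the ribosomal DNA into a long precursor RNA, small nucleolar ribonucleoproteins (snoRNPs) guide its methylation and pseudouridylation, and a large set of assembly factors folds and cleaves it into the RNAs of the small (40S) and large (60S) subunits. Enlargement of the nucleolus and a larger pool of ribosomes are known features of a growing cardiac muscle cell. The transcription factor Myc, which binds the E-box CACGTG, is known to activate many genes of this pathway. Lin28 proteins block maturation of the let-7 microRNAs and also bind many messenger RNAs directly.

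RefSeq promoter windows (GRCm38.p6, 250 bases before to 50 bases after the transcription start) were found for 36 of the 40 genes and not for Fbl, Npm1, Rrp12 and Bop1. The E-box CACGTG, which reads the same on both strands, occurred in 10 of the 36 windows (27.8%), against 11.7% of the windows of 9920 genes in the expression table and 7.15% of all 32851 windows. The matches are shown with 30 bases of context on the strand of the gene, with the E-box in capitals, because this is the motif that Myc is known to bind and the transcript of Myc itself rose in floxed TAC hearts.
Imp4, chr1:34439696-34439725, plus strand: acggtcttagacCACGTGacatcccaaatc
Nop2, chr6:125131811-125131840, plus strand: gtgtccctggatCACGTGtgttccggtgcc
Ltv1, chr10:13193092-13193121, minus strand: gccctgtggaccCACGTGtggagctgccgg
Utp20, chr10:88826765-88826794, minus strand: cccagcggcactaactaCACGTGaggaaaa
Pes1, chr11:3963965-3963994, plus strand: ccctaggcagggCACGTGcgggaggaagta
Pno1, chr11:17211540-17211569, minus strand: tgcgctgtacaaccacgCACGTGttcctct
Mybbp1a, chr11:72441347-72441376, plus strand: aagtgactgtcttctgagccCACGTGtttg
Tsr1, chr11:74898092-74898121, plus strand: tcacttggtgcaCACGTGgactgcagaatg
Rrn3, chr16:13780472-13780501, plus strand: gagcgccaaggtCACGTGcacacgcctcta
Rrn3, chr16:13780639-13780668, plus strand: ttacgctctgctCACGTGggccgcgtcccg
Wdr43, chr17:71616220-71616249, plus strand: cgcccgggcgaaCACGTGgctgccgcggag
The E-box began 121 bases before the start of Imp4, 60 bases before that of Nop2, and 215 and 48 bases before that of Rrn3. In the other 7 genes it began 2 to 40 bases after the first transcribed base. The remaining search covered the ETS core CCGGAAG and the CCAAT box CCAAT on both strands. The ETS core occurred in 14 of the 36 windows (38.9%) and in 19.0% of the windows of genes in the table, and the CCAAT box in 15 (41.7%) and in 42.7%. These motifs and the share comparison are descriptions of letters in a window and carry no test. The 250 bases before the start are shown for Nop58 and Nhp2, the 2 genes with the largest difference in TAC response between the genotypes.
Nop58, chr1:59684756-59685005, plus strand: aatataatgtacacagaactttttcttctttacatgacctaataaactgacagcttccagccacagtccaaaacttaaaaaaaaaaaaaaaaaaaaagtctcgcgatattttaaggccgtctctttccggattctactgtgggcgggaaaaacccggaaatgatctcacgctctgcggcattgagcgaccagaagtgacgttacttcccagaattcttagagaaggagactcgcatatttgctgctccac
Nhp2, chr11:51619523-51619772, plus strand: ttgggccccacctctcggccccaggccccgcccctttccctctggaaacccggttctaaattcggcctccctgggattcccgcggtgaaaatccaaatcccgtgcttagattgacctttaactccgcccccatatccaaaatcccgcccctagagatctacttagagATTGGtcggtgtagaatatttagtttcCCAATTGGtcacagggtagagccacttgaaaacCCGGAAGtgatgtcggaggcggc
In the Nhp2 stretch the capitals mark, from left to right, a CCAAT box on the opposite strand beginning 83 bases before the start, a pair of overlapping CCAAT boxes beginning 56 and 53 bases before it on opposite strands, and an ETS core beginning 23 bases before it. In the Nop58 stretch none of these 3 letter strings was found.

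**Figure D1:**
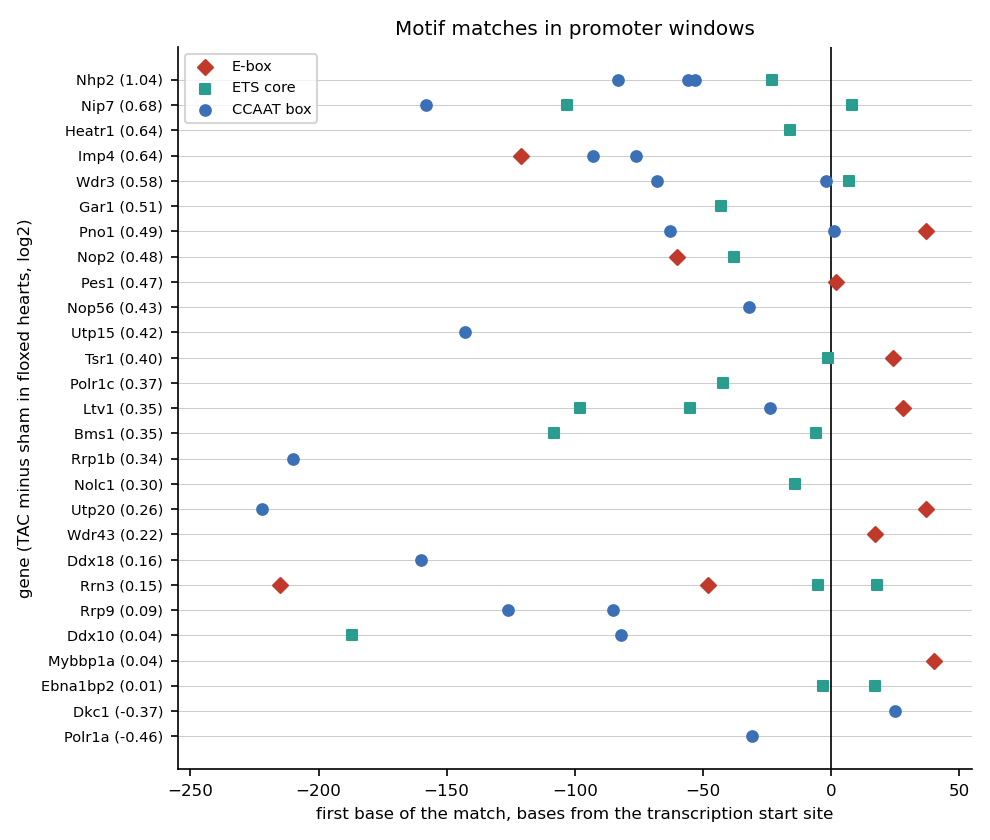
First base of each match to the E-box (red diamonds), the ETS core (green squares) and the CCAAT box (blue circles), in bases from the transcription start (vertical line at 0), for the ribosome biogenesis genes with a match. Genes are ordered by their log2 difference between TAC and sham in floxed hearts, given in brackets; E-boxes occur from Imp4 (0.64) down to Mybbp1a (0.04).

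Genes with and without an E-box are set side by side with no test. Of the 10 genes with an E-box, 4 rose in floxed TAC hearts and their median log2 difference was 0.37; of the 26 genes without one, 11 rose and the median was 0.39. None of the 10 and 3 of the 26 had a TAC response that was smaller in cKO hearts by the interaction test. Fbl, Npm1, Rrp12 and Bop1 have no window and are in neither set. All of them rose, and Fbl, Npm1 and Bop1 also passed the interaction test. Of all tested genes 27.9% rose in floxed TAC hearts and 9.18% had a smaller response in cKO hearts by the interaction test.

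Libraries held between 10315902 and 21871570 assigned reads, and a count of 0 allows a level of up to 3 reads, or 0.137 to 0.291 CPM, by counting error alone. Heart muscle markers were abundant in every library, with summed levels of 12 genes between 70533 and 114727 CPM. Atrial Myl7 was at 133 CPM in floxed sham library 2, 65.0 in cKO sham library 2 and 66.2 in cKO TAC library 2, against 0.511 to 6.16 CPM in the other 5 libraries. Xist was at 44.3 CPM in cKO sham library 2 and at most 0.173 CPM in the others. Lin28a transcripts are not analysed here, and the genotypes are those of the labels. Log2 differences below are on the log2(CPM + 1) scale with the standard error of the fit, and a gene is said to have risen or fallen where its adjusted p was under 0.05 over all tested genes. The bulk libraries cannot tell fewer cells of a type from less RNA per cell.

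In floxed hearts many ribosome biogenesis genes were higher after TAC. Of the 40 genes 19 rose (47.5%, against 27.9% of all tested genes) and 1 fell (2.5%, against 14.5%). The median log2 difference was 0.41, against 0.14 over all tested genes, and 38 of 40 differences were positive, against 59.2% of all genes. The sizes were modest: 13 genes exceeded a 1.5-fold increase (32.5%, against 25.3% of all genes) and 2, Rrp12 and Nhp2, exceeded a 2-fold increase. Both floxed TAC libraries lay above both floxed sham libraries for 30 of the 40 genes (75%, against 46.7% of all genes) and below both for Polr1a and Dkc1 (5%, against 28.9%). When libraries were scaled by median ratios, the median of all genes moved to 0.0033 and that of the 40 genes to 0.28, 13 genes rose, 2 fell and 32 of 40 differences were positive. Of all genes 22.8% rose and 19.8% fell under that scaling. Leaving out 1 library gave 11 risen genes without floxed sham library 1 (against 18.5% of all genes in that fit), 10 without floxed sham library 2 (against 20.1%), 13 without floxed TAC library 1 (against 19.5%) and 9 without floxed TAC library 2 (against 19.6%). With floxed sham library 2 or floxed TAC library 2 left out, the share of the 40 genes was thus close to that of all genes. The call for Polr1a was lost without floxed sham library 1 or floxed TAC library 1. Without the 3 libraries that held atrial transcripts, which left a lone floxed sham library, the median was 0.42, against 0.14 over all genes.

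In cKO hearts no ribosome biogenesis gene passed the threshold after TAC. By limma 0 of the 40 rose (against 2.09% of all tested genes) and 0 fell (against 0.442%), the lowest adjusted p was 0.144, and 2 genes had an unadjusted p under 0.05. The edgeR, limma-voom and DESeq2 fits of the recovered reads also called 0 genes. The median log2 difference was 0.02, as it was over all genes, and the 40 values ranged from -0.28 to 0.61. It depended on the library: the median was 0.13 without cKO TAC library 1 and -0.07 without cKO TAC library 2. Over all genes these medians were 0.07 and -0.03. Both cKO TAC libraries lay above both cKO sham libraries for 8 genes (20%, against 23.0% of all genes) and below both for 4 (10%, against 19.9%). Rrp12 passed the threshold in 1 alternative, without cKO TAC library 1, with a log2 difference of 0.85 and an adjusted p of 0.0453. Without the 3 libraries with atrial transcripts the count was again 0. The floxed and cKO responses share no library, and over the 40 genes their Pearson r was 0.24, against 0.62 over all tested genes. These r values cover unlike ranges and cannot be compared directly. Floxed responses ran from -0.46 to 1.40 in the 40 genes and from -4.95 to 8.57 over all tested genes.

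**Figure D2:**
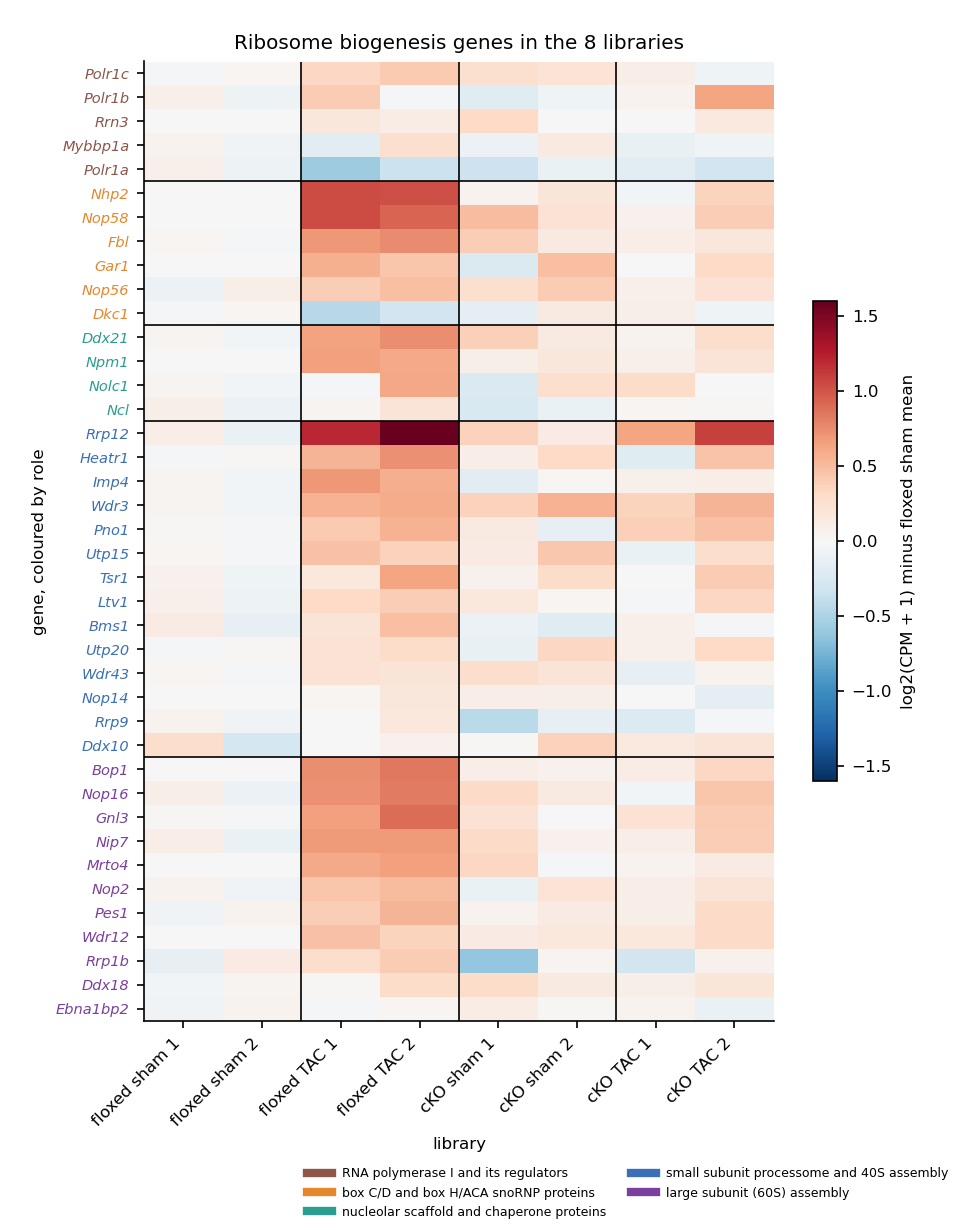
Difference of each library from the floxed sham mean, log2(CPM + 1), for the 40 ribosome biogenesis genes (rows, grouped and coloured by role) in the 8 libraries (columns). Red is strongest for Rrp12, Nhp2 and Nop58 in the 2 floxed TAC columns and for Rrp12 in cKO TAC library 2. Most cKO TAC values lie near the cKO sham values.

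After TAC several of these genes were lower in cKO than in floxed hearts. In cKO TAC hearts 8 of the 40 genes were lower than in floxed TAC hearts (20%, against 16.5% of all tested genes), and 0 were higher (against 8.39%), with 1 at an unadjusted p under 0.05. The edgeR and limma-voom fits called 1 gene higher, Dkc1, and DESeq2 called 0. The median log2 difference was -0.27, against -0.10 over all genes. It was -0.18 under median-ratio scaling, against -0.0099 over all genes. Both cKO TAC libraries lay below both floxed TAC libraries for 27 genes (67.5%, against 40.2%) and above both for Polr1a, Dkc1 and Ddx10 (7.5%, against 23.6%). The share called lower was close to that of all genes. With floxed TAC library 1, floxed TAC library 2 or cKO TAC library 1 left out, 2 genes were called lower, against 6.68%, 6.35% and 6.41% of all genes in those fits, so that the share of the 40 genes was then below that of all genes. The test of the difference between the TAC responses, the genotype by surgery interaction, called 6 genes with a smaller response in cKO hearts (15%, against 9.18%) and 0 with a larger one (against 4.93%; 1 gene at an unadjusted p under 0.05, and 0 by edgeR, limma-voom and DESeq2). Its median was -0.38, against -0.13 over all genes, and 35 of 40 values were negative, against 59.9% of all genes. Under median-ratio scaling 32 of 40 values were negative. Both the interaction and the comparison of the TAC hearts use the floxed TAC and cKO TAC libraries, so their calls are not separate evidence. The 6 interaction calls all fell short without floxed sham library 1, floxed sham library 2, floxed TAC library 1 or floxed TAC library 2, 2 genes passed without cKO TAC library 1 (against 4.64% of all genes), and 10 passed without cKO TAC library 2 (against 15.8%). Without the 3 libraries with atrial transcripts the floxed sham, cKO sham and cKO TAC groups each held a lone library. The median difference between cKO and floxed TAC hearts was then -0.36, against -0.15 over all genes. The median interaction was -0.42, against -0.16.

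Between the sham groups no ribosome biogenesis gene passed the threshold. By limma 0 of the 40 were higher in cKO sham hearts (against 0.0457% of all genes) and 0 lower (against 0.00762%), with a lowest adjusted p of 0.603 and 2 genes at an unadjusted p under 0.05; edgeR, limma-voom and DESeq2 also called 0. Log2 differences ranged from -0.29 to 0.47 with a median of 0.13, against 0.02 over all genes, and 32 of 40 were positive, against 54.3%. Both cKO sham libraries lay above both floxed sham libraries for 19 genes (47.5%, against 24.9% of all genes) and below both for 3, Polr1a, Ncl and Rrp9 (7.5%, against 17.1%). The interaction is the difference between the TAC hearts minus this difference between the sham hearts.

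**Figure D3:**
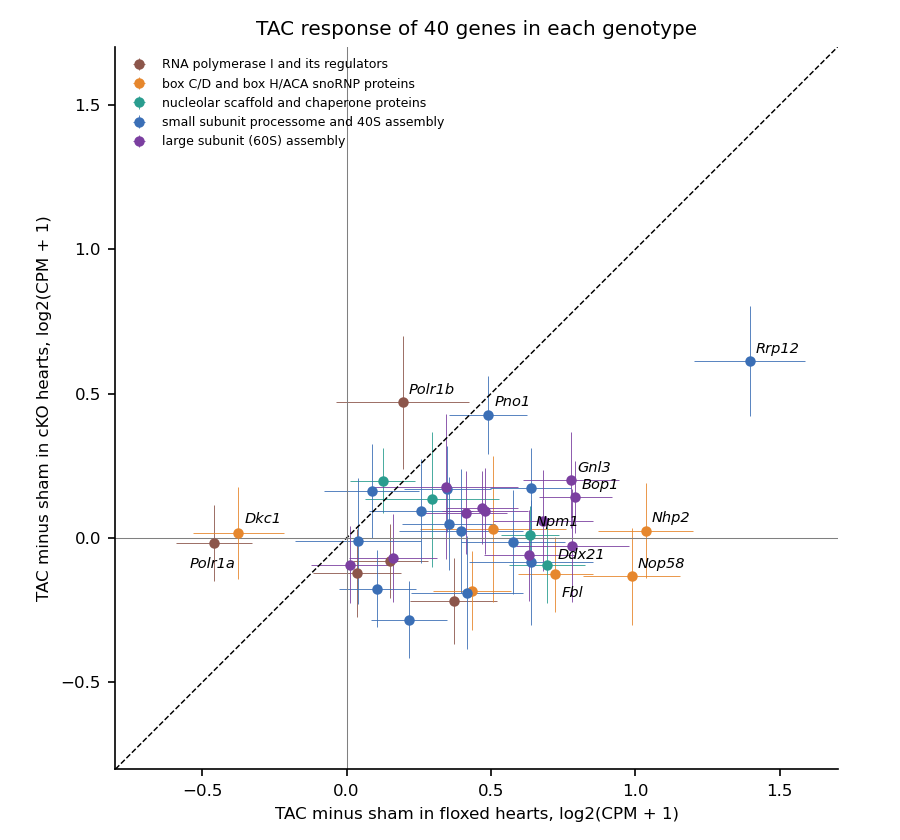
TAC minus sham in cKO hearts (vertical axis) against TAC minus sham in floxed hearts (horizontal axis), log2(CPM + 1), for the 40 genes coloured by role, with the standard error of the fit as bars and the line of equal response dashed. Points lie below the dashed line for 35 genes, Nop58 and Nhp2 farthest from it, and Pno1 close to it.

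Of the 5 members that are subunits or regulators of RNA polymerase I, none rose in floxed TAC hearts, against 27.9% of all tested genes. Among them 1 fell, against 14.5% of all tested genes. Their median was 0.15 in floxed and -0.08 in cKO hearts. Polr1a, the largest subunit of the polymerase (chromosome 6, 71909053 to 71984935, plus strand, mm10), was at 94.2 and 84.3 CPM in floxed sham libraries and at 59.7 and 70.0 CPM in floxed TAC libraries. In cKO hearts it was at 70.8 and 82.6 CPM after sham and at 79.0 and 72.2 CPM after TAC. Both floxed TAC libraries were below both floxed sham libraries, whereas the cKO groups overlapped. The log2 difference was -0.46 ± 0.13 (adjusted p = 0.0191) in floxed and -0.02 ± 0.13 (adjusted p = 0.964) in cKO hearts, and the interaction, 0.44 ± 0.19, did not pass (adjusted p = 0.139). Polr1b, the second-largest subunit, and Polr1c, a subunit shared with RNA polymerase III, differed by 0.19 and 0.37 in floxed hearts and did not pass (adjusted p = 0.532 and 0.0722). Rrn3, the factor that brings the polymerase to the ribosomal promoter, differed by 0.15, and Mybbp1a, a nucleolar protein that binds transcription factors, by 0.04, neither past the threshold.

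Of the 6 genes of snoRNP proteins 3 had a smaller response in cKO hearts by the interaction, against 9.18% of all tested genes. These calls were lost when any single floxed library was left out. In floxed TAC hearts 4 of 6 rose (66.7%, against 27.9% of all tested genes). The median was 0.62 in floxed and -0.06 in cKO hearts. Nop58, a core protein of the box C/D particles that guide methylation (chromosome 1, 59684971 to 59719044, plus strand), was at 14.5 and 14.4 CPM in floxed sham and 30.9 and 28.5 CPM in floxed TAC libraries. It was at 20.8 and 17.2 CPM in cKO sham and 15.3 and 19.3 CPM in cKO TAC libraries. The floxed TAC pair stood above all 6 other libraries, and the cKO groups overlapped. The log2 difference was 0.99 ± 0.17 in floxed hearts (adjusted p = 0.0013) and -0.13 ± 0.17 in cKO hearts (adjusted p = 0.764), and the responses differed by -1.12 ± 0.24 (adjusted p = 0.0175).

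Nhp2, a core protein of the box H/ACA particles that guide pseudouridylation (chromosome 11, 51619735 to 51623714, plus strand), was at 16.6 CPM in both floxed sham libraries and at 35.3 and 34.8 CPM in floxed TAC libraries. Its levels were 17.4 and 19.2 CPM in cKO sham and 16.1 and 21.4 CPM in cKO TAC libraries. Again the floxed TAC pair alone was high, and the cKO groups overlapped. The difference was 1.04 ± 0.16 in floxed hearts (adjusted p = 0.000858), 0.03 ± 0.16 in cKO hearts (adjusted p = 0.957) and -0.88 ± 0.16 between cKO and floxed TAC hearts (adjusted p = 0.00558). Nhp2 was the 1 gene of the 8 lower in cKO TAC hearts whose call was kept in every alternative run.

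Fbl, fibrillarin, the methyltransferase of the box C/D particles (chromosome 7, 28169710 to 28179269, plus strand), was at 34.1 and 32.8 CPM in floxed sham and 54.5 and 57.1 CPM in floxed TAC libraries. In cKO libraries it was at 44.4 and 37.0 CPM after sham and 36.1 and 38.1 CPM after TAC. The cKO groups overlapped, and both cKO sham libraries were above both floxed sham libraries. The floxed difference was 0.72 ± 0.13 (adjusted p = 0.00166), the cKO difference -0.13 ± 0.13 and the interaction -0.85 ± 0.18 (adjusted p = 0.018). Nop56, the partner of Nop58 in the box C/D core, rose by 0.43 ± 0.14 (adjusted p = 0.0281); its cKO difference of -0.18 did not pass. The call for Nop56 was lost under median-ratio scaling (adjusted p = 0.0927). Gar1, of the box H/ACA core, differed by 0.51 ± 0.25 and did not pass (adjusted p = 0.136). Dkc1, dyskerin, the pseudouridine synthase of the same particles, was at 21.02 and 22.15 CPM in floxed sham and 15.6 and 17.3 CPM in floxed TAC libraries, a difference of -0.37 ± 0.16 opposite in sign to Nhp2 and Gar1. It did not pass (adjusted p = 0.0854), but passed under median-ratio scaling (-0.51, adjusted p = 0.0252).

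Among nucleolar scaffold and chaperone proteins 2 of 4 rose in floxed TAC hearts (50%, against 27.9% of all tested genes), with a median of 0.46. The same 2 genes had an interaction below 0 that passed the threshold, against 9.18% of all tested genes. Both interaction calls were lost when any single floxed library was left out. Neither gene passed after TAC in cKO hearts. Npm1, nucleophosmin, a histone and ribosome chaperone of the nucleolus (chromosome 11, 33152287 to 33163206, minus strand), was at 133.9 and 135.1 CPM in floxed sham and 213.2 and 205.2 CPM in floxed TAC libraries. It was at 143.4 and 152.4 CPM in cKO sham and 142.6 and 155.7 CPM in cKO TAC libraries. The floxed TAC pair was above all other libraries. The floxed difference was 0.63 ± 0.10 (adjusted p = 0.000868), the cKO difference 0.01 ± 0.10 and the interaction -0.62 ± 0.14 (adjusted p = 0.022). Per kilobase of its principal coding transcript Npm1 had the highest level of the 40 genes in floxed sham hearts, 82.4 CPM per kilobase, and Ncl, nucleolin, the next highest, 29.1 CPM per kilobase. The same 2 genes led when levels were divided by coding length, at 153.5 and 112.4 CPM per kilobase.

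Ddx21, an RNA helicase of the nucleolus that acts in ribosomal RNA transcription and processing (chromosome 10, 62580251 to 62602281, minus strand), was at 50.0 and 46.9 CPM in floxed sham and 76.4 and 81.6 CPM in floxed TAC libraries. In cKO hearts it was at 63.2 and 53.7 CPM after sham and 50.2 and 59.2 CPM after TAC. The floxed TAC pair was again the highest, and the cKO groups overlapped. The floxed difference was 0.69 ± 0.13 (adjusted p = 0.00232), the cKO difference -0.09 ± 0.13 and the interaction -0.79 ± 0.19 (adjusted p = 0.0248). Ncl differed by 0.13 ± 0.11 in floxed hearts (adjusted p = 0.401). Nolc1, a chaperone of snoRNPs, differed by 0.30 ± 0.23 (adjusted p = 0.339), with floxed TAC libraries at 27.8 and 44.5 CPM on either side of the floxed sham level of 29.4 CPM in library 1.

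Small subunit assembly had the single largest response. Of its 14 genes 5 rose in floxed TAC hearts (35.7%, against 27.9% of all tested genes). The median was 0.37 in floxed and 0.04 in cKO hearts. The count was 3 without floxed TAC library 1 and 2 without floxed TAC library 2, floxed sham library 1 or floxed sham library 2. It was also 2 by edgeR, by DESeq2 and under median-ratio scaling, where 23.0%, 21.4% and 22.8% of all genes were called higher. The share of the 14 genes was then below that of all genes. Rrp12, a factor of pre-40S maturation and nuclear export (chromosome 19, 41862851 to 41896173, minus strand), was at 28.5 and 24.6 CPM in floxed sham and 62.5 and 81.4 CPM in floxed TAC libraries. It was at 34.5 and 29.1 CPM in cKO sham and 41.4 and 57.8 CPM in cKO TAC libraries. Its libraries did not overlap between sham and TAC in either genotype, and both cKO TAC libraries were below both floxed TAC libraries. The difference was 1.40 ± 0.19 in floxed hearts (adjusted p = 0.000377) and 0.61 ± 0.19 in cKO hearts, where it did not pass (adjusted p = 0.144). The interaction of -0.78 ± 0.27 did not pass either (adjusted p = 0.0826). Rrp12 was the 1 gene over 1.5-fold in cKO hearts.

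Imp4, a protein of the U3 particle of the small subunit processome (chromosome 1, 34439851 to 34449356, plus strand), was at 20.8 and 19.7 CPM in floxed sham and 33.2 and 30.9 CPM in floxed TAC libraries. In cKO hearts it was at 17.9 and 20.4 CPM after sham and 21.6 and 21.8 CPM after TAC. The floxed TAC pair was the highest, and the cKO TAC pair lay just above the cKO sham pair. The floxed difference was 0.64 ± 0.14 (adjusted p = 0.00508), the cKO difference 0.17 ± 0.14, and cKO TAC hearts were lower than floxed TAC hearts by 0.54 ± 0.14 on the log2 scale (adjusted p = 0.0208). Pno1, a late factor of pre-40S maturation, rose by 0.49 ± 0.14 (adjusted p = 0.0158), and its cKO difference of 0.43 ± 0.14 (adjusted p = 0.15) was nearly as large, with an interaction of -0.06 ± 0.19. Heatr1 and Wdr3, of the UTP-A and UTP-B complexes of the processome, rose by 0.64 and 0.58 (adjusted p = 0.0382 and 0.0278). Under median-ratio scaling the calls for Heatr1, Wdr3 and Pno1 were lost (adjusted p = 0.0667, 0.0607 and 0.0729). The other 9 genes of this group did not pass, with floxed differences from 0.04 to 0.42: the processome proteins Utp15 (0.42), Wdr43 (0.22), Utp20 (0.26) and Nop14 (0.11), the U3 protein Rrp9 (0.09), the GTPase Bms1 (0.35), the late 40S factors Tsr1 (0.40) and Ltv1 (0.35), and the helicase Ddx10 (0.04).

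Of the 11 large subunit assembly genes 8 rose in floxed TAC hearts (72.7%, against 27.9% of all tested genes). The median was 0.48 in floxed and 0.09 in cKO hearts. By DESeq2 the count was 5, where 21.4% of all genes were called higher. It was also lower than 8 when any single floxed library was left out. Without floxed TAC library 2 the share of the 11 genes was just below that of all genes. Bop1, Pes1 and Wdr12, which form the PeBoW complex needed for maturation of 60S precursors, all rose. Bop1 (chromosome 15, 76452989 to 76477277, minus strand) was at 31.9 CPM in both floxed sham libraries and at 54.0 and 58.1 CPM in floxed TAC libraries. It was at 34.4 and 33.4 CPM in cKO sham and 34.8 and 40.5 CPM in cKO TAC libraries. Both cKO TAC libraries were above both cKO sham libraries and below both floxed TAC libraries. The floxed difference was 0.79 ± 0.13 (adjusted p = 0.000885), the cKO difference 0.14 ± 0.13 and the interaction -0.65 ± 0.18 (adjusted p = 0.0396). That interaction lost its call under median-ratio scaling (-0.53, adjusted p = 0.067). Pes1 rose by 0.47 ± 0.13 (adjusted p = 0.0139) and Wdr12 by 0.41 ± 0.14 (adjusted p = 0.0422), and the interactions of both, -0.36 and -0.32, did not pass.

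Mrto4, a factor that holds the place of the ribosomal stalk protein on 60S precursors (chromosome 4, 139347435 to 139352576, minus strand), was at 17.9 and 17.8 CPM in floxed sham and 27.8 and 28.8 CPM in floxed TAC libraries. In cKO hearts it was at 22.8 and 17.7 CPM after sham and 18.7 and 19.7 CPM after TAC. The floxed TAC pair stood above all others, and the cKO groups overlapped. The floxed difference was 0.63 ± 0.16 (adjusted p = 0.00946), and cKO TAC hearts were lower than floxed TAC hearts by 0.53 ± 0.16 on the log2 scale (adjusted p = 0.0344). The latter call was lost under median-ratio scaling (adjusted p = 0.0767). The annotation holds 2 named pseudogenes of Mrto4, and how reads were divided among copies is not stated. Gnl3, nucleostemin, a GTPase of the nucleolus, rose by 0.78 ± 0.17 (adjusted p = 0.00436), Nop16, a 60S assembly factor, by 0.78 ± 0.19 (adjusted p = 0.00966), Nip7, another, by 0.68 ± 0.17 (adjusted p = 0.011), and Nop2, a methyltransferase of 28S ribosomal RNA, by 0.48 ± 0.15 (adjusted p = 0.0272). Under median-ratio scaling the calls for Wdr12 and Nop2 were lost (adjusted p = 0.139 and 0.0794). Rrp1b, Ddx18 and Ebna1bp2, also 60S factors, differed by 0.34, 0.16 and 0.01 and did not pass.

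**Figure D4:**
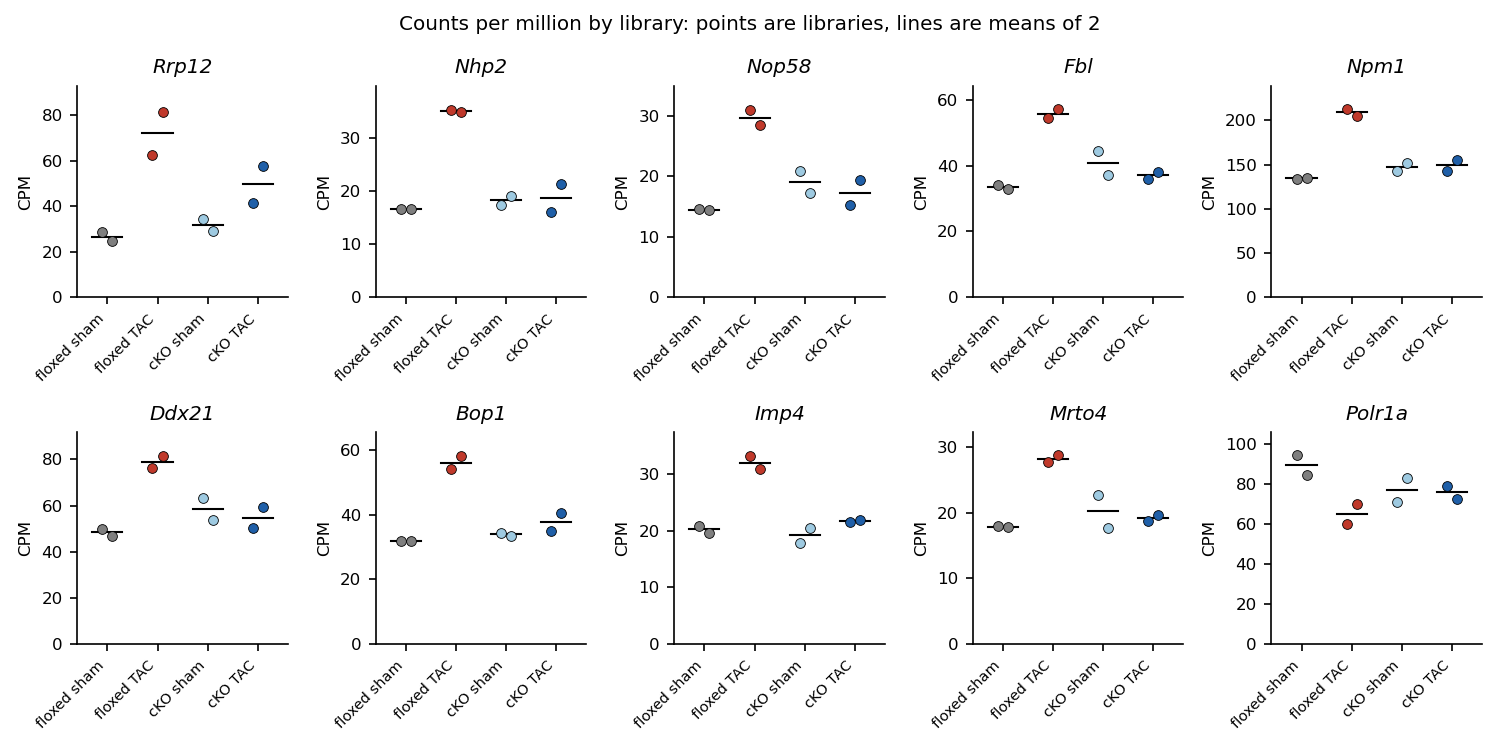
CPM in each library (points) and the group mean of 2 libraries (lines) for the 10 ribosome biogenesis genes given by library in the text. In the 9 genes that rose, both floxed TAC points lie above all floxed sham and cKO points, while Polr1a is lowest in floxed TAC hearts.

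The 19 risen genes showed the same direction of difference between the genotypes. Their median response was 0.64 in floxed hearts and 0.03 in cKO hearts, the cKO values ranged from -0.18 to 0.61, and for all 19 the cKO value was the smaller. Because the 19 were chosen by their floxed response, that choice itself favours a smaller cKO value, and the medians and the count are a description. Of all tested genes 59.9% had a smaller response in cKO hearts, and the share among all risen genes was not computed. For Pno1 the difference was close to 0 (-0.06). Of the 20 calls in floxed TAC hearts 13 were kept in every alternative other than leaving out single libraries, and 9 also when each library was left out in turn: Nop58, Fbl, Nhp2, Npm1, Ddx21, Rrp12, Imp4, Bop1 and Gnl3. Reads of several genes could be shared with a neighbour on the opposite strand, since the library kit keeps strand but the counting setting is not stated. Exons of Tsr1 overlapped those of Srr over 1240 bases, Heatr1 those of Lgals8 over 155 bases and Mybbp1a those of Spns2 over 131 bases.

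Outside the 40 genes the share of risen pathway genes in floxed TAC hearts was below that of all genes. Of 138 other ribosome biogenesis genes 28 rose (20.3%, against 27.9% of all genes) and 2 fell, with a median of 0.21. With reads recovered from the CPM values, edgeR called 12 higher and 6 lower, limma-voom 14 and 6, and DESeq2 7 and 5, where 23.0%, 23.5% and 21.4% of all genes were called higher. In cKO hearts 0 passed by limma, edgeR, limma-voom or DESeq2, with 8 at an unadjusted p under 0.05 in the limma fit and a median of -0.10. By role, 15 of 53 other 60S factors rose, 6 of 43 other small subunit factors, 5 of 18 other RNA polymerase I genes, 1 of 11 snoRNP genes (Ruvbl1, an ATPase of snoRNP assembly, 0.45 ± 0.14) and 1 of 13 genes of the RNA exosome, which trims precursor RNA (its nuclease Dis3, 0.52 ± 0.19). Eif6, which keeps immature 60S subunits from joining 40S subunits, had the largest difference of these genes. It was at 34.0 and 37.7 CPM in floxed sham, 84.2 and 71.3 CPM in floxed TAC, 42.4 and 43.9 CPM in cKO sham and 37.5 and 41.8 CPM in cKO TAC libraries, so that the floxed TAC pair alone was high. Its difference was 1.09 ± 0.13 in floxed hearts (adjusted p = 0.000194) and -0.12 ± 0.13 in cKO hearts, with an interaction of -1.21 (adjusted p = 0.00658). Zfp593, a 60S factor at low level, rose by 1.064 ± 0.237, Rrp8, a nucleolar methyltransferase, by 0.71 ± 0.18, Bysl, of 40S assembly, by 0.67 ± 0.14, and the polymerase subunits Polr2h and Polr1e by 0.56 ± 0.18 and 0.51 ± 0.15. Those that fell were Taf1a, of the selectivity factor that recruits RNA polymerase I, at -1.001 ± 0.183, and Gltscr2, a nucleolar 60S factor, at -0.39 ± 0.12. Both genotype comparisons called few of the 138, with shares below those of all tested genes. In TAC hearts 4 were lower in cKO hearts, Rrp7a, Ppan, Nol12 and Eif6 (against 16.5% of all genes). Taf1a, the 1 called higher, stood against 8.39% of all genes. The interaction called 3 with a smaller cKO response, Polr1e, Mki67ip and Eif6 (against 9.18%), and 0 with a larger one (against 4.93%). These genes other than those of the naming rule were picked after their values were seen.

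Myc had a larger response than any of the 40 genes. It was at 2.72 and 4.26 CPM in floxed sham and 21.95 and 37.95 CPM in floxed TAC libraries. In cKO hearts it was at 12.7 and 4.98 CPM after sham and 6.45 and 9.57 CPM after TAC, with the groups overlapping. The difference was 2.76 ± 0.40 in floxed hearts (adjusted p = 0.000517) and -0.03 ± 0.40 in cKO hearts, and the interaction was -2.78 ± 0.56 (adjusted p = 0.0154). Of the other 10 tested genes of the Myc network 1 rose in floxed TAC hearts and 2 fell. Mxd3, a partner of Max that opposes Myc, rose by 2.68 ± 0.24 in floxed and by 1.68 ± 0.24 in cKO hearts. Mxi1, of the same class, fell by 0.71 on the log2 scale and Mlxip by 0.31 in floxed hearts. The ribosomal proteins, the products that these factors assemble, were measured beside them. By limma 73 of 77 rose in floxed TAC hearts (against 27.9% of all genes), with a median of 0.66. The edgeR, limma-voom and DESeq2 fits called 62, 62 and 61 higher (against 23.0%, 23.5% and 21.4%). None rose in cKO hearts by limma (against 2.09%), edgeR, limma-voom or DESeq2. The limma median there was -0.02, with 2 at an unadjusted p under 0.05 in either direction. Of these 77 genes limma called 60 with a smaller cKO response by the interaction (against 9.18% of all genes), and edgeR 36 (against 5.95%). Rpl3l, the muscle form of Rpl3, went the other way, with -2.73 ± 0.11 in floxed and -0.64 ± 0.11 in cKO hearts, and was named after its values were seen.

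**Figure D5:**
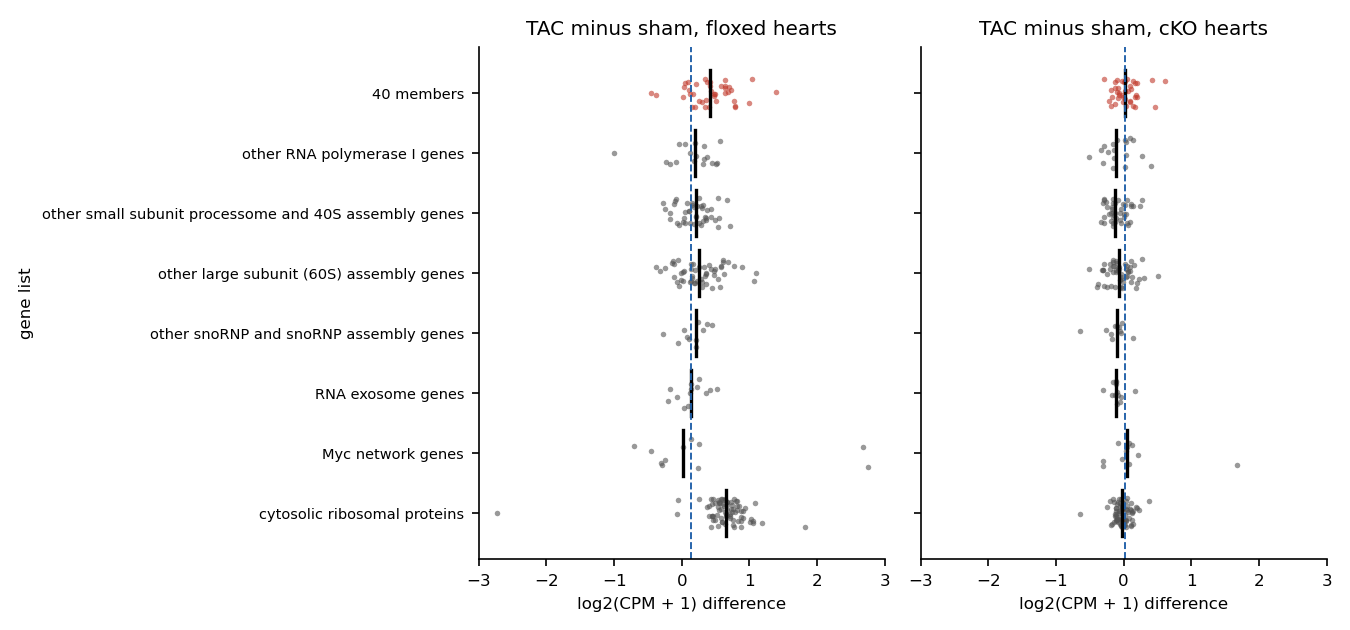
Log2(CPM + 1) difference of TAC minus sham in floxed hearts (left) and cKO hearts (right) for the 40 ribosome biogenesis genes (red) and the genes of 7 other lists (grey), with the median of each list as a black bar and the median of all tested genes as a dashed line. In floxed hearts the bar of the 40 genes (0.41) lies between those of the other biogenesis lists and that of the ribosomal proteins (0.66), and in cKO hearts all bars lie near 0.

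Markers of macrophages, fibroblasts and dividing cells were higher after TAC in both genotypes, with smaller median differences in cKO hearts. The summed level of the 40 genes was higher after TAC in floxed hearts and overlapped between sham and TAC in cKO hearts. The sum over the 40 genes was 1377 and 1309 CPM in floxed sham, 1679 and 1826 CPM in floxed TAC, 1375 and 1422 CPM in cKO sham and 1393 and 1504 CPM in cKO TAC libraries. Of 11 macrophage markers 11 rose in floxed and 10 in cKO TAC hearts. Their sum was 417 to 423 CPM in floxed sham, 2124 to 2394 CPM in floxed TAC, 339 to 444 CPM in cKO sham and 748 to 1026 CPM in cKO TAC libraries. Of 10 markers of dividing cells 10 rose in floxed and 9 in cKO TAC hearts, with sums of 17.3 to 24.8, 211 to 219, 10.9 to 16.96 and 82.1 to 118 CPM in the same order of groups. Of 8 fibroblast markers 7 rose in floxed and 4 in cKO TAC hearts, with sums of 1464 to 1585, 11978 to 15418, 1576 to 1794 and 3411 to 5749 CPM. Each of these marker sums was higher in cKO TAC than in cKO sham libraries, and lower in cKO TAC than in floxed TAC libraries. Median log2 differences in floxed and cKO hearts were 2.34 and 1.17 for macrophage markers and 2.84 and 1.87 for markers of dividing cells. For fibroblast markers they were 2.46 and 1.30. Of 12 heart muscle markers 7 fell and 2 rose in floxed TAC hearts and none passed in cKO hearts, with sums of 105831 to 114727, 70533 to 72604, 95678 to 101048 and 89254 to 104231 CPM. Of 5 neutrophil markers 3 rose in floxed TAC hearts, with S100a8 at 0 in at least 1 library, none of 7 endothelial markers passed, 3 of 7 markers of smooth muscle and pericytes rose and 2 fell, and 1 of 5 atrial markers rose. The 1 erythroid marker tested did not pass, and no lymphocyte marker met the minimum for testing. The part of these cells in the results for the 40 genes was not tested.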

How the data were processed

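Messenger RNA of mouse left ventricle was sequenced in 8 libraries, from stranded kits and Trizol RNA per the labels' protocols. Per the submitters' processing notes the authors used Bowtie2 2.2.6, HTSeq and DESeq2 with mm10. Gene models, strand handling and the sequence of steps are not stated. The authors deposited CPM (reads scaled to a common library total) for 13439 genes. Per library 100% of these deposited values were whole reads within 0.02 reads, so reads were recovered for the count-based alternatives. Between 0.153% and 0.201% of the reads in a library total belonged to genes that are not listed. The CPM carry no scaling beyond the library total.

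From the CPM, limma 3.58.1 (R 4.3.3, trended variance) was fitted to log2(CPM + 1) with 1 coefficient per group and all 8 libraries, over the 13120 genes that reached 1 CPM in 2 or more libraries, and p was adjusted by Benjamini-Hochberg over all of them. A gene passed at an adjusted p under 0.05. The fit was also run on simulated counts, with the same relative spread for every gene and changes in floxed TAC alone. That setting is simpler than the real libraries, so the run does not measure the error rate of the calls here. Alternatives were pseudocounts of 0.5 and 2, no filter, a filter of 5 CPM, median-ratio (RLE) and TMM scaling, edgeR 4.0.16 (quasi-likelihood), limma-voom and DESeq2 1.42.0 on recovered reads, only the libraries compared, a replicate block, and leaving out libraries. Counts of replicate libraries differed by more than sampling noise, so each library counts once. Positions, transcript lengths, overlaps and snoRNAs are from GENCODE M21, promoter windows from RefSeq GRCm38.p6. The 40 genes, the lists and the rule for named genes were chosen with earlier results of these data known, and the ETS core and CCAAT box were added after seeing the windows. By that rule values per library were given for the 5 genes with the smallest p in floxed hearts, for those past the threshold in another comparison and for those against the majority; of other lists, the 2 that rose most and the 2 that fell most in floxed hearts were named.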

Additional observations from a re-analysis of the deposited data

Results flagged for a closer look

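The genotype by surgery interaction in limma, which tests the difference, called a smaller TAC response in cKO hearts for 6 of the 40 genes. That was 15% of the ribosome biogenesis genes, against 9.18% of all tested genes. A larger response was called for 0 of the 40, against 4.93% of all tested genes. The response in cKO minus that in floxed hearts, log2, was -1.12 ± 0.24 for Nop58 (adjusted p = 0.0175), -0.85 ± 0.18 for Fbl (adjusted p = 0.018), -0.62 ± 0.14 for Npm1 (adjusted p = 0.022), -1.01 ± 0.23 for Nhp2 (adjusted p = 0.0223), -0.79 ± 0.19 for Ddx21 (adjusted p = 0.0248) and -0.65 ± 0.18 for Bop1 (adjusted p = 0.0396). For all 6, both floxed TAC libraries were above both floxed sham libraries. In cKO hearts the sham and TAC libraries overlapped for 5 of them, and for Bop1 both TAC libraries were above both sham libraries. All 6 calls were lost when any of the 4 floxed libraries was left out.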

How the results depend on the processing

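Of the 10 counts of called ribosome biogenesis genes 6 were 0 and say little on stability. For the other 4, 41 of 47 values under alternatives that kept the libraries or left out several stayed within 1.5 times the main count, and 18 of 32 with 1 library left out did. Medians moved by more than the spread between libraries in 17 of 59 and 14 of 40 values. That of the cKO TAC response went from 0.02 to 0.13 without cKO TAC library 1 and to -0.07 without cKO TAC library 2. In floxed TAC hearts DESeq2 called 12 genes higher against 19 by limma. The lower count was 2 in place of 1 under RLE scaling, TMM scaling, edgeR, limma-voom and DESeq2, through Dkc1. The count of genes higher in cKO than in floxed TAC hearts was 1 in place of 0 under edgeR and limma-voom, also Dkc1. Leaving out 1 library at a time gave 9 to 19 higher and 0 to 1 lower in floxed TAC hearts, 0 to 1 higher in cKO TAC hearts, 2 to 10 lower in cKO than in floxed TAC hearts, and 0 to 10 interaction calls with a smaller cKO response. These fits have fewer samples and leave 1 group with a lone library, which is assumed to vary like the others. The cause of the other shifts was not tested.

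Of the single calls, 49 of 402 values under the other alternatives and 89 of 272 with 1 library left out lost the threshold in the same direction. Over all tested genes, deviations of the replicate 1 libraries correlated between groups at -0.11 to 0.08. Such values show no pairing by replicate number over genes as a whole, and cannot tell whether some genes are paired. Myl7 was higher in replicate 2 than in replicate 1 of floxed sham, cKO sham and cKO TAC hearts, and lower in floxed TAC hearts. With the replicate number as a block, 18 genes were higher and 1 lower in floxed TAC hearts, 8 were lower in cKO TAC hearts and 6 had a smaller cKO response. With 2 libraries a group the standard error of a TAC response was 0.10 to 0.25 on the log2 scale, and a difference of that size is within the spread between libraries.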

Other observations

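Several of the ribosome biogenesis genes also carry small nucleolar RNAs, the guides of the snoRNPs, within their own introns or exons. In the GENCODE annotation 7 of the 40 genes (17.5%) hold at least 1 snoRNA on the same strand, against 202 of 12325 protein-coding genes in the expression table (1.64%). Nop56 holds 5, Nop58 4, Ncl, Wdr43 and Gnl3 3 each, Tsr1 2 and Dkc1 1. The snoRNAs themselves are not analysed here. Of these hosts Nop56, Nop58 and Gnl3 rose in floxed TAC hearts, by 0.43, 0.99 and 0.78 on the log2 scale, while Ncl (0.13), Wdr43 (0.22), Tsr1 (0.40) and Dkc1 (-0.37) did not pass the threshold.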
